A study of Mus musculus with 14 samples.

Results

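The Dlx genes are the mouse homeobox genes Dlx1 to Dlx6, and their members were taken as every captured promoter fragment (bait) that holds an annotated transcription start site of one of these 6 genes. Such a bait was found for 5 of the 6 genes, 1 bait each, among 22171 baits in all. The 5 baits took part in 570 of the 1345534 fragment pairs listed in at least 1 library. Dlx6 had no bait of its own, so it was seen only when other baits reached its start-site fragment. The neighbouring Dlx5 bait listed that fragment in no library, so the Dlx5 contacts below are not shown to be contacts of the Dlx6 promoter.

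Promoter capture Hi-C (PCHi-C), which enriches a Hi-C library for ligations that involve promoters, was measured in 14 libraries of cranial neural crest cells (CNCCs), 2 for each of 7 conditions. The E10.5 wild-type conditions were the second pharyngeal arch (PA2), the mandibular (Md) and the maxillary (Mx) part of the first arch, and the frontonasal process (FNP). The others were wild-type pinna, the external ear that forms from PA2, at E12.5 and E14.5, and PA2 of E10.5 Hoxa2EGFP/EGFP embryos, in which both Hoxa2 alleles carry EGFP (Hoxa2 knockout). Wild-type cells were Wnt1::Cre;ROSARFP and sorted for RFP, with Cre driven by the Wnt1 promoter in the premigratory progenitors, whereas knockout cells were sorted for GFP, so that genotype and sort cannot be told apart in the knockout comparison. Embryos of both sexes on a mixed C57Bl/6J and CD1 background were pooled. The contact lists carry no expression, so the labelled cell types were not checked against marker genes.

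Dlx genes encode homeodomain transcription factors that lie in linked, convergently transcribed pairs, Dlx1 with Dlx2, Dlx3 with Dlx4 and Dlx5 with Dlx6. In the pharyngeal arches their expression is nested along the dorsoventral axis, with Dlx1 and Dlx2 reaching furthest dorsally, and Dlx5 and Dlx6, which act downstream of endothelin signalling, giving the lower jaw its identity. Neural crest cells of the frontonasal process form the mid-face and, unlike PA2, express no Hox genes.

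A pair enters the deposited lists when its CHiCAGO score, a weighted measure of how far its read count exceeds the background for that distance, is 5 or more, and an unlisted pair was set to 0 here. Read counts were not analysed here, so the sequencing depth behind a score is unknown. The libraries listed from 113670 to 186248 pairs within a chromosome. The lists of Md replicate 1 and E12.5 pinna replicate 2 stood apart, with 46.5% and 62.7% of their pairs between chromosomes against 2.64% to 5.61% in the other libraries, and only pairs within a chromosome were tested. In bulk cells, a contact made by fewer cells and a weaker contact in each cell cannot be told apart.

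The 5 baits differed in how much they contacted and how far away. The Dlx5 bait (chr6:6879164-6883001, mm10) listed 141 different pairs on its own chromosome at a median distance of 871.8 kb, and 16 of them were listed in all 14 libraries. The Dlx2 bait (chr2:71536367-71550155) listed 130 pairs at a median of 314.3 kb and the Dlx1 bait (chr2:71521822-71529796) 101 at 285.4 kb. The Dlx3 bait (chr11:95104192-95127247) listed 63 pairs at a median of 144.5 kb and the Dlx4 bait (chr11:95142509-95146269) 44 at 463.8 kb. Contacts pointed mostly to one side of each gene. For Dlx5, 137 of 141 contacted fragments lay toward lower coordinates, across Dlx6. The Dlx1 and Dlx2 baits reached the same way in 71 and 93 fragments, whereas 54 of the Dlx3 fragments and 39 of the Dlx4 fragments lay toward higher coordinates. The Dlx1 bait holds 3 of the gene's 6 annotated start sites and the 3 others lie in the adjoining fragment, which is not a bait. The antisense gene Dlx1as starts in both the Dlx1 and the Dlx2 bait, so their contacts are also its contacts.

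Dlx1 and Dlx2, the pair with the broadest arch expression, had their highest contact rates in Hoxa2 knockout PA2, followed by wild-type PA2, and their lowest in E12.5 pinna for Dlx1 and in Md for Dlx2. The contact rate, the number of listed pairs of a bait per 100000 listed same-chromosome pairs of the library, was used to compare libraries. For Dlx1 it was 24.9 and 26.9 in the PA2 libraries and 32.3 and 44.9 in the Hoxa2 knockout libraries. It was 13.4 and 15.2 in Mx, 9.26 and 12.9 in FNP, and 6.92 and 12.4 in Md. The E12.5 pinna libraries gave 6.44 and 8.21, and the E14.5 pinna libraries 8.93 and 9.34. All 4 PA2 libraries, wild type and knockout, thus stood above the other 10. In the order of the means, knockout PA2 and PA2 did not overlap, nor did PA2 and Mx, Mx and FNP, or E14.5 and E12.5 pinna, while Md overlapped both FNP and E14.5 pinna.

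The Dlx2 bait was ordered alike at the top. Its rate was 26.2 and 34.9 in PA2, 39.6 and 48.8 in the knockout, and 9.88 and 20.0 in FNP. The other 4 conditions lay between 7.49 and 13.7. FNP overlapped both pinna stages, Mx and Md, and E14.5 pinna overlapped E12.5 pinna, Mx and Md. E12.5 pinna lay above Mx, and Mx above Md, without overlap.

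**Figure D1:**
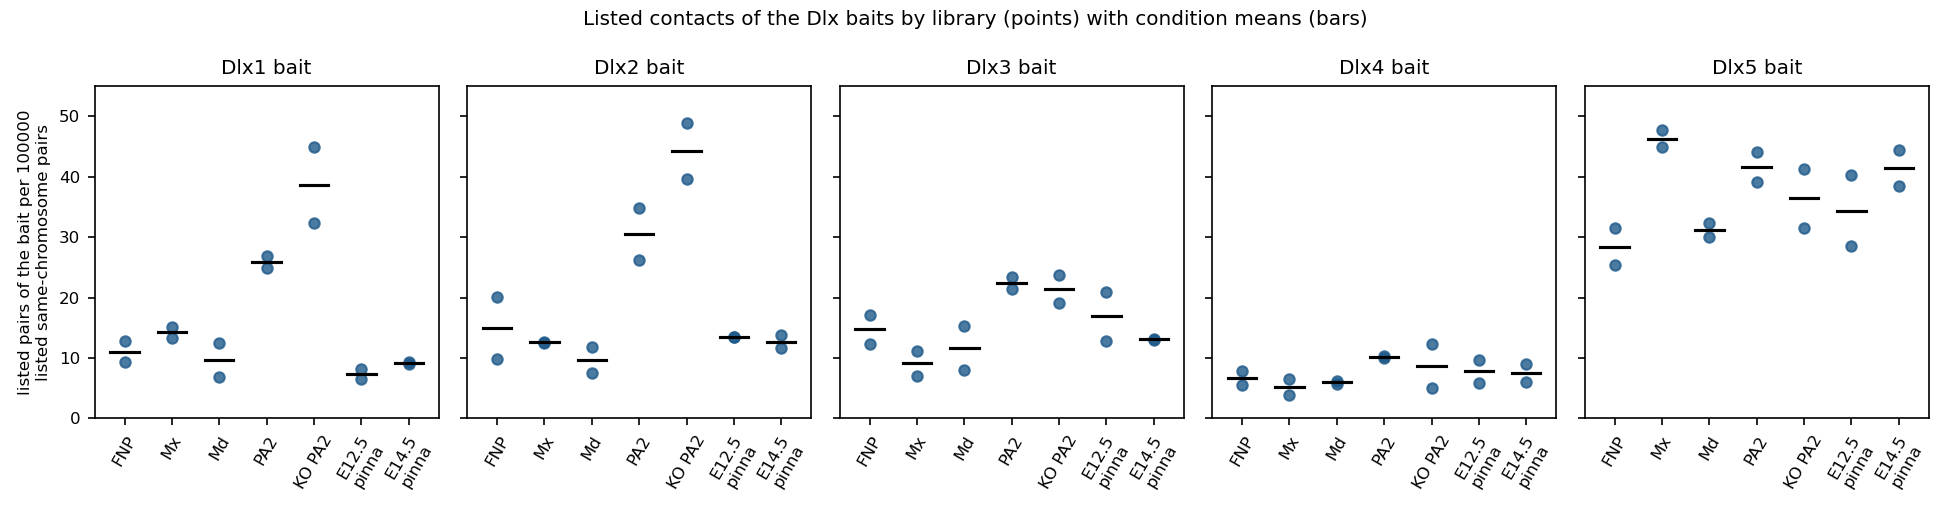
Contact rate of the 5 Dlx baits in each library (points, listed pairs of the bait per 100000 listed same-chromosome pairs of the library, vertical axis from 0) with the mean of the 2 libraries of each condition (bars). KO PA2 is Hoxa2 knockout PA2. Dlx1 and Dlx2 peak in PA2 and knockout PA2, where the Dlx1 means are 25.9 and 38.6, while the highest Dlx4 value is 12.3.

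From PA2 to the pinna the contact rate of both genes fell. On the log2(rate + 1) scale Dlx1 was lower by a factor of 2.93 in the 4 pinna libraries (log2 difference -1.55, SE 0.26, adjusted p = 0.00282, limma over all baits). Dlx2 was lower by a factor of 2.22 (-1.15, SE 0.27, adjusted p = 0.0209, limma). Each of the 4 pinna libraries lay under both PA2 libraries for Dlx1 and Dlx2, and also for Dlx3 and Dlx4, whereas the groups overlapped for Dlx5. The share of all baits separated in this way was not computed. Of the 10199 baits tested, 5.13% were called in this comparison and 3.25% were called lower, against 2 of the 5 Dlx baits, both lower. The Dlx3 difference was -0.58 (SE 0.29, limma adjusted p = 0.266), that of Dlx4 -0.40 (SE 0.35, 0.57) and that of Dlx5 -0.15 (SE 0.20, 0.744), and none of these passed. The calls rested on PA2: with PA2 replicate 2 left out the limma adjusted p was 0.0561 for Dlx1 and 0.0854 for Dlx2. With the other PA2 library left out it was 0.0418 for Dlx1 and 0.235 for Dlx2.

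Over the 7 conditions together, the moderated F test called Dlx1 (limma adjusted p = 0.000879) and Dlx2 (0.00204), where 9.69% of all baits were called. Dlx3 (0.0941), Dlx5 (0.239) and Dlx4 (0.618) were not called. The highest and lowest condition means differed by 2.24 on the log2 scale for Dlx1 and 2.10 for Dlx2.

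In the Hoxa2 knockout, Dlx1 (log2 difference 0.54, SE 0.30, limma adjusted p = 0.446) and Dlx2 (0.53, SE 0.31, 0.472) had higher mean rates than in wild-type PA2 but neither passed the test, and 0 of the 5 Dlx baits had an unadjusted p under 0.05. In rate, both knockout libraries were above both wild-type libraries for each gene. In listed pairs they were not, as Dlx1 had 51 and 39 in the knockout against 35 and 39 in PA2. Dlx2 had 45 and 59 against 49 and 38. The rate divides by the same-chromosome pairs of the library, which were fewest in the knockout (113670 and 120854). The share of all baits separated in rate was not computed. Of all baits, 0.931% were called in this comparison, 92 of the 95 being lower. The wild-type PA2 libraries are the same in this and the pinna comparison. Among the E10.5 wild-type conditions, 0% of baits were called between Md and PA2 and FNP and Mx, and 0% between FNP and the other conditions, by limma, with 704 and 598 at an unadjusted p under 0.05. The Dlx baits added 0 and 1 to these, the one being Dlx5 (0.46, SE 0.19, limma adjusted p = 0.759), whose rate was 25.3 and 31.5 in FNP and between 30.0 and 47.7 in the other E10.5 wild-type libraries.

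The genomic interval contacted by Dlx1 and Dlx2 is occupied by Dync1i2, which encodes an intermediate chain of cytoplasmic dynein, and by Slc25a12, a mitochondrial aspartate-glutamate carrier. The interval from the first gene to the end of the second, chr2:71211706-71367749, spans 65 HindIII fragments. Of the fragments listed for Dlx1, 37.6% touched Dync1i2 or Slc25a12, and 35.4% of those of Dlx2. Dlx1 and Dlx2 shared 71 contacted fragments, which is 70.3% of those of Dlx1 and 54.6% of those of Dlx2. The fragments they shared in at least 7 libraries were 10, or 71.4% and 62.5% of such fragments.

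The strongest contact of the pair was a fragment with exons 8 to 13 of Dync1i2 (chr2:71245340-71249574), 278.4 kb from the Dlx1 bait. Its Dlx1 score was 7.35 and 6.45 in FNP, 8.79 and 11.49 in Mx, 7.34 and 7.99 in Md, and 16.27 and 10.0 in PA2. It was 12.71 and 12.08 in the knockout, 6.72 and 10.96 in E12.5 pinna and 6.82 and 7.79 in E14.5 pinna. The contact was therefore listed in every library, with its highest value in PA2 replicate 1 and overlap among the conditions. From the Dlx2 bait the same fragment scored up to 18.45, also in PA2 replicate 1, and was unlisted only in FNP replicate 2. The next fragments are the one with exon 15 of Dync1i2 (chr2:71250373-71251493), listed by Dlx1 in all 14 libraries at 5.11 to 15.42 with a mean of 8.32, and the one with exon 14 (chr2:71249682-71250372), listed by Dlx2 in 12 libraries with a mean of 8.24.

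Within Slc25a12, the Dlx2 contact with the highest mean score (7.28) was chr2:71312418-71321388, listed in 11 libraries. Another fragment that holds exon sequence (chr2:71310174-71312260) was listed in some conditions and not in others. It was named for passing the threshold against FNP and between pinna and PA2. Dlx2 contacted it at 7.86 and 7.07 in Mx, 6.73 and 10.09 in Md, 10.38 and 12.31 in PA2, and 15.37 and 14.41 in the knockout. It was unlisted in both FNP libraries and in all 4 pinna libraries. From the Dlx1 bait it scored 8.99 and 6.92 in PA2 and 19.81 and 16.07 in the knockout, 5.52 in Mx replicate 1 and 5.84 in Md replicate 2, and was unlisted elsewhere. The knockout values lay above those of wild-type PA2 for both genes, with differences on the asinh(score) scale of 0.81 (SE 0.15, limma adjusted p = 0.165) for Dlx1 and 0.27 (SE 0.12, 0.55) for Dlx2, neither of which passed. Both contacts were listed in the 2 PA2 libraries and in none of the 4 pinna libraries, so they entered the comparison of these groups through PA2 alone and had to differ, and their size is given as a description (-3.12 for Dlx2 and -2.76 for Dlx1 on the asinh scale).

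**Figure D2:**
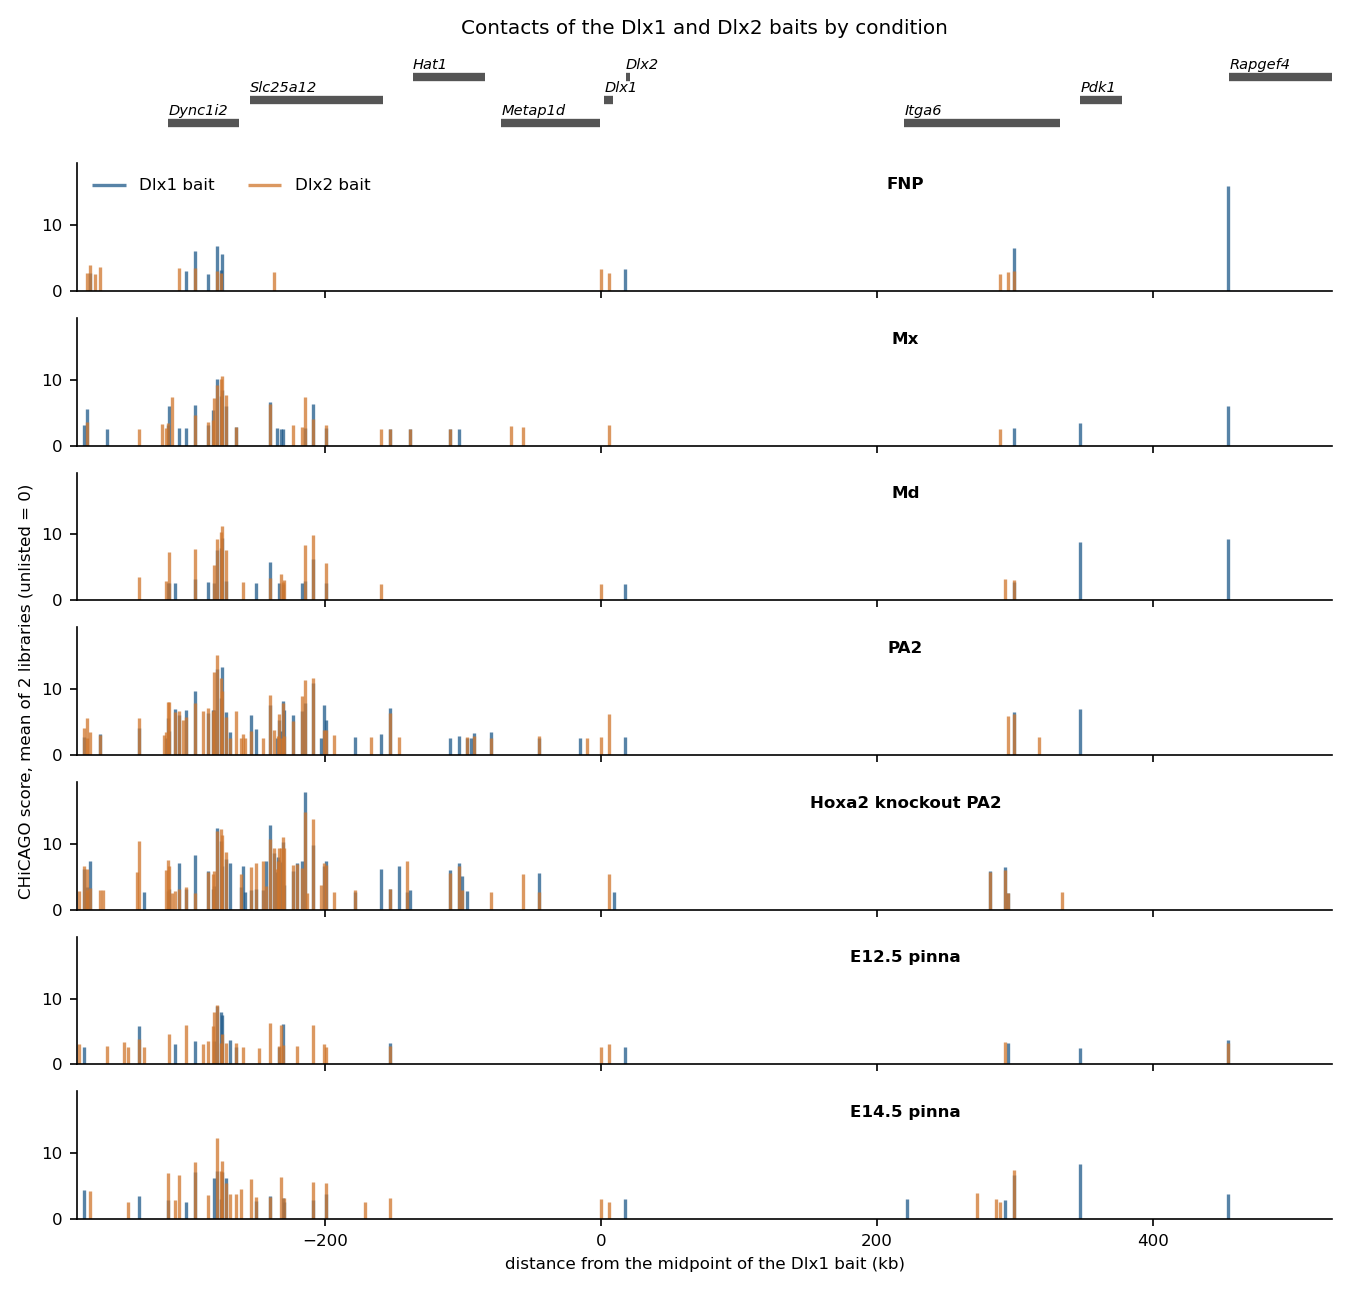
CHiCAGO score of each fragment contacted by the Dlx1 (blue) and Dlx2 (orange) baits, as the mean of the 2 libraries of a condition with unlisted set to 0, against the distance from the Dlx1 bait in kb, with genes drawn to scale on top. The contacts crowd over Dync1i2 and Slc25a12 in PA2 and knockout PA2 and are sparse there in FNP, where the contact with Rapgef4 is the tallest bar.

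Summed over the Dync1i2 and Slc25a12 interval, the Dlx1 scores were 201.1 and 214.9 in PA2 and 274.6 and 223.5 in the knockout. They were 98.7 and 87.1 in Mx, 40.6 and 105.1 in Md, from 42.1 to 65.1 in the pinna, and 30.2 and 24.5 in FNP. For Dlx2 they were 255.8 and 225.1 in PA2, 232.0 and 309.7 in the knockout, from 82.8 to 120.1 in Mx, Md and the pinna, and 25.5 and 5.6 in FNP. FNP was thus the lowest condition for both baits. With fewer listed fragments the sums fall too: the PA2 libraries listed 27 to 31 of the 65 fragments for these baits and the FNP libraries 1 to 5.

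Sequences are printed for the promoters of Dlx1 and Dlx2, whose contact rates moved together. They are 300 bases long, end 50 bases after the RefSeq start and lie mostly upstream of it (GRCm38.p6, 5′ to 3′ along each gene), Dlx1 at chr2:71529195-71529494 on the plus strand and Dlx2 at chr2:71546705-71547004 on the minus strand; only these 2 of the 6 genes were matched in the promoter table. Both windows were searched on both strands for the homeodomain cores TAATTA and TAATTG, the E-box CATCTG and the HindIII site, and neither holds any of them. Of 32817 promoter windows of 300 bases, 5.3%, 8.0%, 17.2% and 7.5% hold these motifs in that order.
Dlx1 promoter: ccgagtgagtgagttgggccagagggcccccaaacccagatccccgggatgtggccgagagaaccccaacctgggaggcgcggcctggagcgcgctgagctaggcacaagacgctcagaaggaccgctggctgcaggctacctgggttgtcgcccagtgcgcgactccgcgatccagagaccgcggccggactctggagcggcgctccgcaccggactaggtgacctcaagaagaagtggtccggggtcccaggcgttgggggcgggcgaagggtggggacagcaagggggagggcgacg
Dlx2 promoter: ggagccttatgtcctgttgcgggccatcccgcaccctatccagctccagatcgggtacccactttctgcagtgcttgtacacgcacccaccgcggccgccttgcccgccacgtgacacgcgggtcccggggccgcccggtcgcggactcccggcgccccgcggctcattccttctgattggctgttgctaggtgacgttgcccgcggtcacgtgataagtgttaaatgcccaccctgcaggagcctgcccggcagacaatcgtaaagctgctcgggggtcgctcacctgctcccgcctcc

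The centre of the Slc25a12 fragment chr2:71310174-71312260, at chr2:71311068-71311367 on the plus strand, is shown. Of the Slc25a12 contacts of Dlx2 picked by the naming rules given below, it had the highest mean score (6.02). The fragment chr2:71312418-71321388, outside these rules for Dlx2, had a higher mean (7.28). The window shown holds neither homeodomain core nor the E-box CATCTG. Of the central 300-base windows of HindIII fragments on chromosomes 2 and 11, 10.2% hold TAATTA, 13.8% TAATTG and 22.3% CATCTG.
Slc25a12 fragment centre: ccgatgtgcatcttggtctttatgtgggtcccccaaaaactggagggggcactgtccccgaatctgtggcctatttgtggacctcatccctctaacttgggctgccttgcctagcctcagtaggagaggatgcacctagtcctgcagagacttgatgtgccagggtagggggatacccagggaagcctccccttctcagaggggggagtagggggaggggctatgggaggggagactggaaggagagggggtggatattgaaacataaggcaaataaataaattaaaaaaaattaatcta

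At the level of single pairs, 20 of the 198 Dlx pairs tested differed between pinna and PA2, 17 lower and 3 higher in the pinna, where 6.19% of all pairs were called and 4.19% were called lower. Dlx1 contributed 8 lower pairs and Dlx2 6, and 12 of these 14 lie in Dync1i2 or Slc25a12. The others were Dlx2 contacts with an intergenic fragment nearest Cybrd1, 390.7 kb away, and with Itga6, an integrin subunit gene on the opposite side (chr2:71819114-71823253). All 20 were unlisted in every library of one of the groups. The 17 lower pairs were listed in both PA2 libraries and no pinna library, and the 3 higher ones in all 4 pinna libraries and no PA2 library, so each passed the filter through 1 group alone and had to differ. With PA2 replicate 1 left out the count was 1, and with PA2 replicate 2 left out it was 4.

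Between FNP and the other E10.5 wild-type conditions, 11 of 217 Dlx pairs were called, 6 higher and 5 lower outside FNP, against 1.57% of all pairs. The 6 include Dlx1 with 2 Slc25a12 fragments, the first of them intronic (chr2:71284801-71287028, mean 6.68 against 0 in FNP). Dlx2 gave 3, among them the exon 15 fragment of Dync1i2 (3.01 on the asinh scale), and Dlx5 an intronic Dync1i1 fragment (chr6:5830352-5831868, mean 9.60 against 0). The 6 higher pairs were listed in all 6 libraries outside FNP and in no FNP library, and the 5 lower pairs in both FNP libraries and none of the other 6, so each entered the test through the group where it is high, and no p is given for them. Requiring 4 listed libraries left 0 calls. In the comparison of Md and PA2 with FNP and Mx, limma called 0% of all pairs and 0 of 217 Dlx pairs, with 21 Dlx pairs at an unadjusted p under 0.05. In the knockout comparison limma called 0% and 0 of 133 Dlx pairs, with 13 at an unadjusted p under 0.05 where 5875 of all 60731 had one. With a replicate block it called 9 of the 133 Dlx pairs and 4044 of all 60731. In simulated data the main knockout pair fit recovered 0% of the pairs shifted by 1.5 on the asinh scale. Its lack of calls therefore does not show a lack of change.

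Contacts between Dlx1 and Dlx2 themselves scored low where they were listed. The score is an excess over the background for that distance, so it does not show how often such close fragments touch. The paper states that most methods based on Hi-C do not tell very close contacts apart from the high crosslinking background. The Dlx1 and Dlx2 baits, 17.5 kb apart, were listed together in 5 libraries at 5.01 to 6.54. The Dlx2 bait contacted the fragment with the other Dlx1 start sites in 8 libraries at 5.24 to 6.50. The other promoters reached in at least 7 libraries were Rapgef4, a guanine nucleotide exchange factor gene, and Pdk1, a pyruvate dehydrogenase kinase gene, from Dlx1, and Dync1i2 from Dlx2. The Dlx1 contact with Rapgef4, the farthest listed in 7 libraries or more at 454.7 kb, scored 22.79 and 9.16 in FNP, 6.32 and 5.73 in Mx, and 9.0 and 9.59 in Md. It was listed in 1 library at each pinna stage, at 7.34 and 7.66, and was unlisted in all 4 PA2 libraries, wild type and knockout. The Dlx1 contact with Pdk1 was listed in PA2 at 6.67 and 7.22 and in neither FNP nor knockout library.

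Dlx5, with Dlx6 a main effector of lower-jaw identity, made the highest-scoring contacts of the family. Its 141 contacted fragments comprised 72 in Dync1i1, a dynein intermediate chain gene, and 35 in Slc25a13, a mitochondrial carrier gene, together 75.9%. These are the paralogues of Dync1i2 and Slc25a12, which neighbour Dlx1 and Dlx2, and coding exons near the 3′ end of Dync1i1 are known limb enhancers of Dlx5 and Dlx6. In each library 79.2% to 92.9% of the Dlx5 pairs lay in these genes.

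The strongest contact was the fragment with exon 15 of Dync1i1 (chr6:6001967-6006769), 876.7 kb from the bait. It scored 22.6 and 29.81 in FNP, 43.77 and 32.07 in Mx, 30.46 and 30.92 in Md, and 27.36 and 30.06 in PA2. It scored 15.77 and 17.63 in the knockout, 26.31 and 37.05 in E12.5 pinna, and 28.34 and 47.07 in E14.5 pinna. The knockout libraries were the lowest of the 14 and every other library exceeded 22. The adjoining fragment with exon 16 (chr6:6006770-6011861) scored 11.51 and 9.54 in the knockout and 17.29 to 41.78 elsewhere. The differences between knockout and wild-type PA2 on the asinh scale, -0.54 (SE 0.11, limma adjusted p = 0.174) and -0.72 (SE 0.16, 0.205), did not pass the test.

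Other strong Dlx5 contacts lay in introns of Dync1i1. The fragment chr6:5861130-5864878, at 1018.1 kb, scored from 12.16 in PA2 replicate 1 to 31.21 in E12.5 pinna replicate 2, with 19.33 and 21.3 in the knockout. Its neighbour chr6:5854584-5861129 scored 9.91 and 16.4 in the knockout against 12.32 and 21.3 in PA2 (difference -0.24, SE 0.23, limma adjusted p = 0.7) and was highest in E14.5 pinna replicate 2. The fragment chr6:5995924-6000374 scored 17.16 and 17.75 in the knockout against 9.24 and 13.91 in PA2 (difference 0.43, SE 0.16, limma adjusted p = 0.44). Of these 3 intronic fragments, 1 thus had a lower and 2 a higher mean in the knockout than in PA2. The farthest contact listed in 7 libraries or more, 1242.6 kb away and 85.8 kb from Dync1i1, was listed in 13 libraries at 6.02 to 26.14, and missing in knockout replicate 2.

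**Figure D3:**
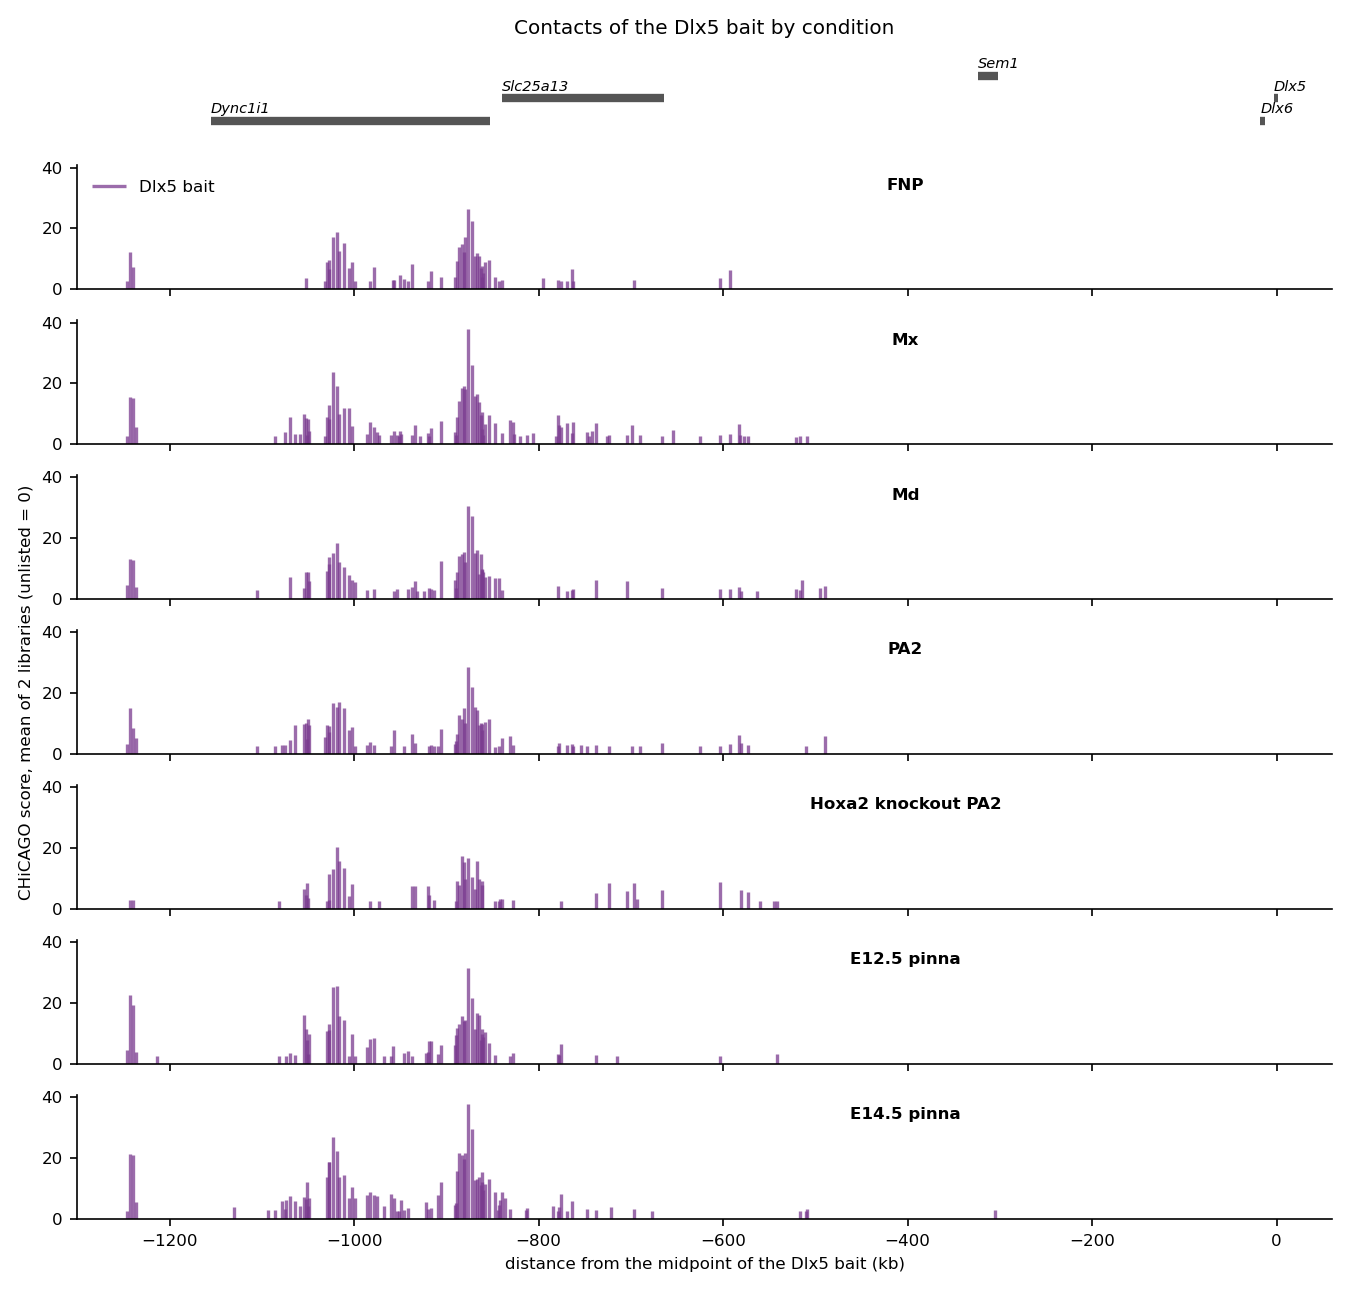
CHiCAGO score of each fragment contacted by the Dlx5 bait, as the mean of the 2 libraries of a condition with unlisted set to 0, against the distance from the bait in kb, with genes drawn to scale on top. In all 7 conditions the tallest bars stand over Dync1i1, and in knockout PA2 the bar at the exon 15 fragment is at the mean of 15.77 and 17.63.

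Summed over the 106 fragments of Dync1i1, Dlx5 scores were 303.1 and 283.0 in the knockout, 343.6 and 367.7 in FNP, 383.7 and 506.0 in PA2, and 444.9 and 419.7 in Md. They were 457.8 and 517.7 in Mx, 499.1 and 518.2 in E12.5 pinna, and 454.1 and 799.2 in E14.5 pinna. The knockout libraries were the lowest and E14.5 pinna replicate 2 the highest, but these sums were not scaled to the library. The summed score of all same-chromosome pairs was likewise lowest in the knockout (821476 and 875948) and highest in E14.5 pinna replicate 2 (1437495). The contact rate of Dlx5 ranged from a mean of 28.4 ± 4.37 (SD, n = 2) in FNP to 46.3 ± 1.97 (SD, n = 2) in Mx, and from PA2 down to FNP neighbouring conditions overlapped.

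Between pinna and PA2, 5 Dlx5 pairs were called. Higher in the pinna were an intronic Dync1i1 fragment (chr6:6020423-6020915, mean 9.26 against 0 in PA2) and an intronic Slc25a13 fragment (chr6:6104254-6107347, mean 7.43 against 0), both listed in all 4 pinna libraries and so tested through the pinna alone. The 3 lower ones had mean scores of 5.69 to 6.15 in PA2. Of the contacts listed in both libraries of a single condition, the one with the highest mean score for Dlx5 was that with the promoter of Fezf1, a zinc finger gene, 16368 kb away, at 12.12 and 10.68 in Mx. Dlx5 also listed 34 of its 141 pairs in 1 library only.

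The exons in the 2 strongest Dlx5 fragments are printed with 2 exons of the paralogue beside Dlx1 and Dlx2. These are Dync1i2 exon 15, which lies in a fragment that Dlx1 contacted in all libraries, and exon 16, the counterpart of Dync1i1 exon 15. The exons are numbered within one transcript of each gene (mm10, plus strand), and capitals mark CATCTG. Dync1i1 exon 15 lies at chr6:6006270-6006410, exon 16 at chr6:6010455-6010580, Dync1i2 exon 15 at chr2:71250842-71250986 and exon 16 at chr2:71258084-71258224.
Dync1i1 exon 15: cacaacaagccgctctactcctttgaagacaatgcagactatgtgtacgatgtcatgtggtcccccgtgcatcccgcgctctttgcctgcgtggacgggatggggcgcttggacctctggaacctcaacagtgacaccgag
Dync1i1 exon 16: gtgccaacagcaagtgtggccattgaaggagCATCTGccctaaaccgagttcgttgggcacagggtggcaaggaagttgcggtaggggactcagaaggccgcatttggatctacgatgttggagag
Dync1i2 exon 15: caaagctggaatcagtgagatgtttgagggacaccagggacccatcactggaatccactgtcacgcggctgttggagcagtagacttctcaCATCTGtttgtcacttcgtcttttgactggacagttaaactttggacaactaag
Dync1i2 exon 16: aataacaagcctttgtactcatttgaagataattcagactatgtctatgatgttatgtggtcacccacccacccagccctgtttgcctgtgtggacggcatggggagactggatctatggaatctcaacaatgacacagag

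Dync1i1 exon 15 and Dync1i2 exon 16, both of 141 bases, are 79.4% identical. The counterpart of Dync1i2 exon 15 is Dync1i1 exon 14 (75.2% identical), and that of Dync1i1 exon 16 is Dync1i2 exon 17 (64.3%), which are not shown. Yet the fragment with Dync1i2 exon 16 was listed by Dlx1 in 4 libraries and by Dlx2 in 2, while that with Dync1i1 exon 15 was listed by Dlx5 in all 14. The Dync1i2 fragments that Dlx1 contacted in all libraries hold exons 8 to 13 and exon 15 instead. CATCTG is present once in Dync1i1 exon 16 and once in Dync1i2 exon 15, and none of the 4 exons holds TAATTA or TAATTG.

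Dlx3 and Dlx4, which in the arches are nested distally with Dlx5 and Dlx6 and act also in skin, placenta and tooth, contacted the interval between Dlx4 and Tac4, a tachykinin gene. The 5 strongest contacts of the pair all came from the Dlx3 bait and lay next to each other, from 119.7 to 139.3 kb away. The fragment chr11:95251408-95258646, 2.9 kb from Tac4, scored 14.6 and 16.59 in FNP, 10.87 and 14.54 in Mx, 13.63 and 15.27 in Md, and 16.14 and 19.78 in PA2. It scored 13.38 and 12.16 in the knockout, 14.55 and 12.22 in E12.5 pinna, and 11.99 and 13.62 in E14.5 pinna. The neighbour chr11:95244878-95251407 scored from 10.24 to 19.59, with 18.48 and 18.56 in the knockout. Of the 5 contacts, 4 were listed in every library, and that at 119.7 kb was missing in E12.5 pinna replicate 2. The Tac4 promoter fragment was contacted by Dlx3 in all 14 libraries at 5.71 to 9.45.

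The centre of the strongest Dlx3 fragment, at chr11:95254878-95255177 on the plus strand, is shown as the contact of the pair with the highest mean score. It holds neither homeodomain core and no CATCTG.
Tac4-side fragment centre: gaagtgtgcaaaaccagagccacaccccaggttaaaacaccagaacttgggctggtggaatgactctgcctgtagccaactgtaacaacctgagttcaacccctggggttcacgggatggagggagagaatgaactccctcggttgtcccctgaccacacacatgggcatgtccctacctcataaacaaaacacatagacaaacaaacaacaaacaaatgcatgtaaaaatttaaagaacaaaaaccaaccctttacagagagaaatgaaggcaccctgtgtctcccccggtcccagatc

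The Dlx3 and Dlx4 baits, 28.7 kb apart, contacted each other in 10 libraries, at 11.44 and 8.42 in E12.5 pinna, 5.65 and 6.85 in E14.5 pinna, 7.77 and 6.09 in the knockout, and 6.81 and 6.61 in PA2. They were listed in 1 of 2 libraries in FNP (5.12) and Md (5.89) and in none in Mx. From PA2 to the pinna this contact differed by 0.15 (SE 0.24, limma adjusted p = 0.791). Dlx3 and Dlx4 shared 19 fragments, 30.2% of those of Dlx3 and 43.2% of those of Dlx4, and 8 in at least 7 libraries, 40.0% and 80.0%.

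**Figure D4:**
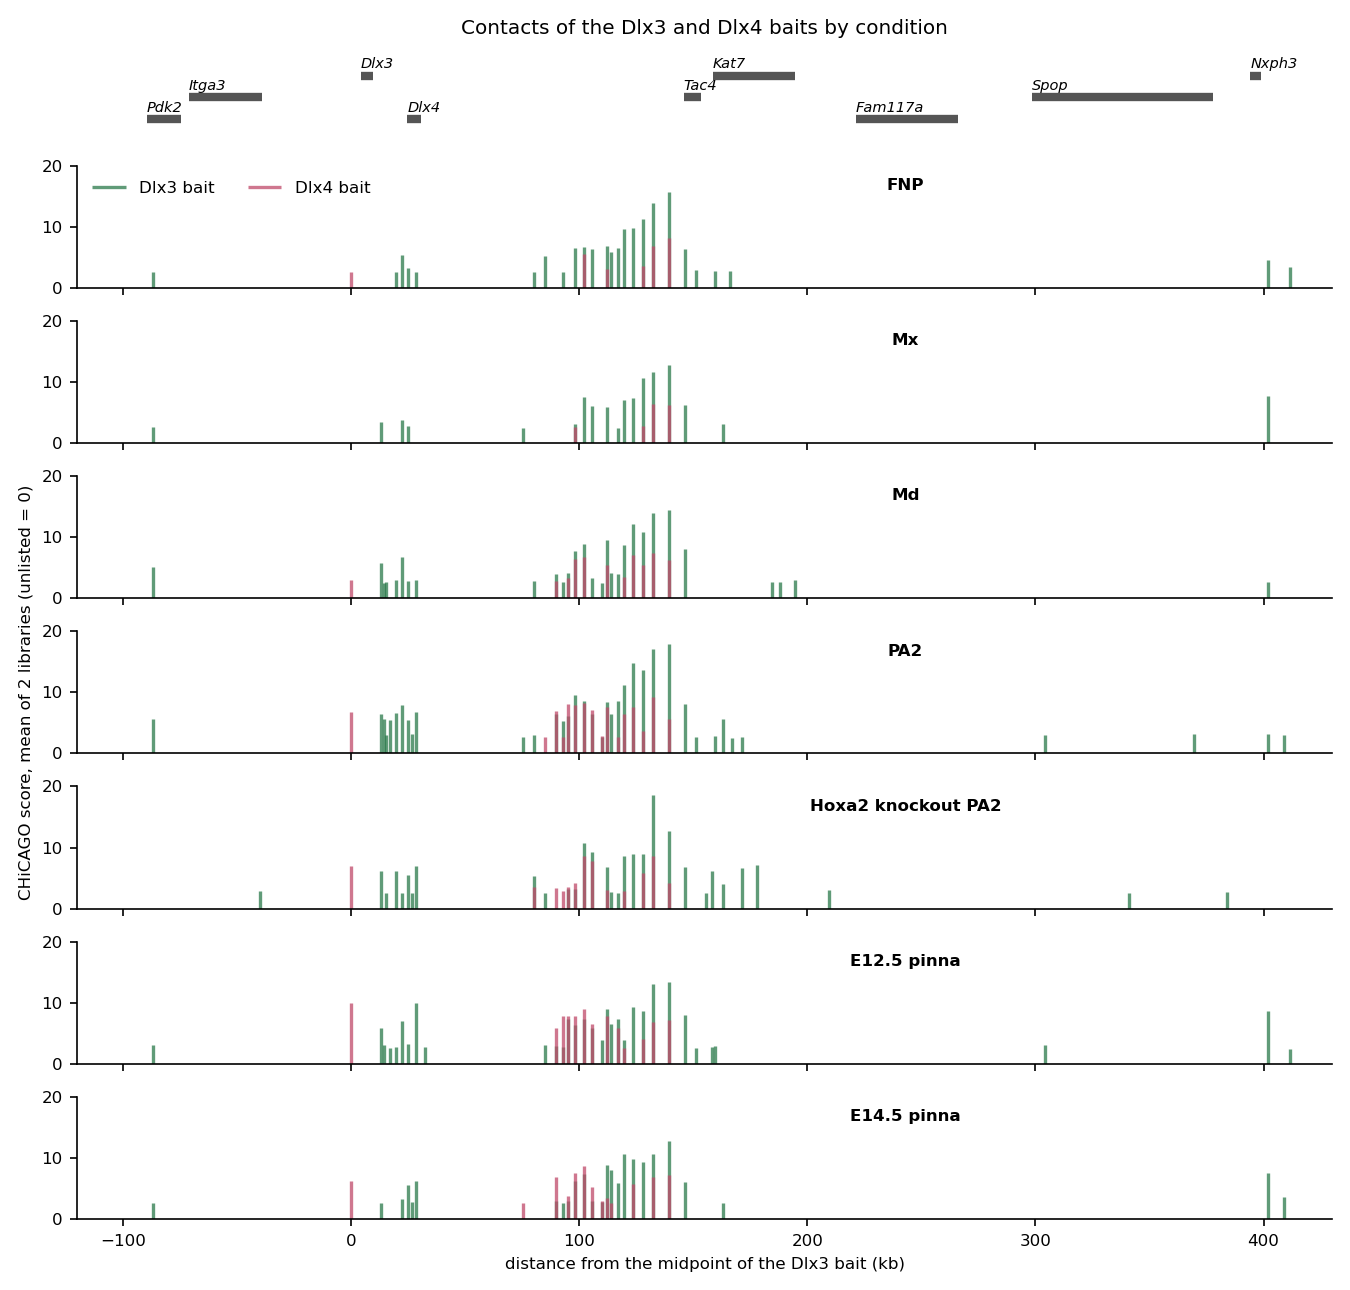
CHiCAGO score of each fragment contacted by the Dlx3 (green) and Dlx4 (red) baits, as the mean of the 2 libraries of a condition with unlisted set to 0, against the distance from the Dlx3 bait in kb, with genes drawn to scale on top. In every condition the tallest bars stand between Dlx4 and Tac4, where Dlx3 scored up to 19.78 in a single library.

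The Dlx3 rate was highest in PA2 (22.4 ± 1.49, SD, n = 2) and lowest in Mx (9.11 ± 2.99, SD, n = 2). For Dlx4 PA2 (10.2 ± 0.27, SD, n = 2) and Mx (5.21 ± 1.97, SD, n = 2) were again the extremes. All neighbours in both orders overlapped. The farthest Dlx3 contact of 7 libraries or more was the promoter of Nxph3, a neurexophilin gene, 401.9 kb away, which was listed in 9 libraries at up to 10.94, in all 4 pinna libraries and in neither knockout library. Pdk2, a pyruvate dehydrogenase kinase gene, was reached in 8 libraries. A Kat7 fragment was contacted by Dlx3 in both knockout libraries (8.94 and 5.38) and in no other. The Dlx3 pair called between pinna and PA2 was an intergenic fragment 388.2 kb away (chr11:94725077-94730017, mean 7.08 in the pinna against 0), listed in all 4 pinna libraries and so tested through the pinna alone.

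Among pairs listed in both libraries of one condition and in no other library, Dlx1 and Dlx2 had 18, of which 13 were of the knockout, 4 of FNP and 1 of PA2. Of all 16684 such same-chromosome pairs in the series, 41.3% were of the knockout, 7.58% of FNP and 6.24% of PA2. Dlx5 had 4 and Dlx3 1.

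Contacts over 1 Mb were concentrated in FNP for Dlx1 and Dlx2; this measure was chosen after its values were seen, so no test is given. Of the Dlx1 pairs, 10 of 18 and 8 of 15 were over 1 Mb in the FNP libraries, against 0 to 4 pairs in each other library. Of the Dlx2 pairs it was 16 of 28 and 13 of 16 in FNP and 0 to 4 elsewhere. Dlx4 had such pairs in FNP (6 of 11 and 5 of 9) and also in Mx (6 of 10 and 4 of 6). Of all listed same-chromosome pairs of a library, 19.1% and 27.2% were over 1 Mb in FNP, and 13.6% to 44.4% over the 14 libraries.

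**Figure D5:**
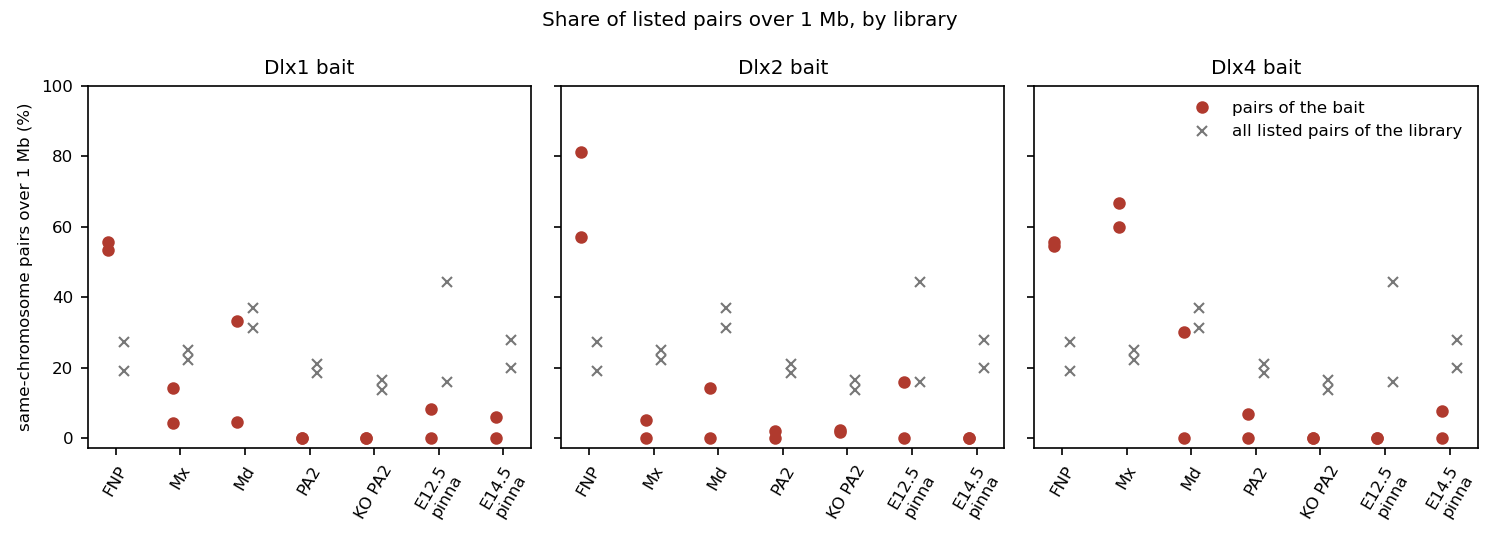
Percentage of listed same-chromosome pairs over 1 Mb in each library, for the Dlx1, Dlx2 and Dlx4 baits (red points) and for all pairs of the library (grey crosses). The FNP points of Dlx1 (55.6% and 53.3%) and Dlx2 (57.1% and 81.2%) lie above the crosses, and those of Dlx4 do so in FNP and Mx.

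The far contacts met other homeobox and patterning genes. The Hoxd cluster, from Evx2 to Hoxd1 on the same chromosome as Dlx1 and Dlx2 and 3113.5 to 3199.9 kb away, was listed 7 and 2 times by Dlx1 in FNP and once in Md replicate 1, at 5.01. Dlx2 listed it 10 and 4 times in FNP and not in any other library, with Hoxd11 at 5.42 and 15.16. The promoter of Sp9, a zinc finger gene, was contacted by Dlx1 in FNP at 5.66 and 10.57, and a Sp9 exon fragment by Dlx2 at 7.58 and 6.48. The adjoining Sp9 intron fragment scored higher with Dlx2, at 15.42 and 8.48 in FNP, and was also listed in Md replicate 2 at 5.81. Dlx4 listed fragments of the Hoxb cluster, 1052.0 to 1213.1 kb away, 5 and 3 times in FNP, 3 and 4 times in Mx and once in PA2 replicate 2, and Dlx3 listed none. Single Hox fragments were rarely listed more than once: 2 of the 12 Hoxd fragments of Dlx2, none of the 10 of Dlx1 and 3 of the 12 Hoxb fragments of Dlx4 were listed in 2 libraries or more.

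A list of 20 other genes of arch dorsoventral patterning was read beside the Dlx baits, among them Edn1 and Ednra, the endothelin ligand and receptor, the transcription factor genes Hand2, Gsc and Msx2, and Bmp4 and Jag1. Of these, 19 genes with 20 baits were tested, and 3 baits were called between pinna and PA2, where 5.13% of all baits were. In that comparison Ednra was higher in the pinna (1.37, SE 0.34, adjusted p = 0.0285, limma), and Gsc (-0.85, SE 0.21, 0.0247) and Msx2 (-1.90, SE 0.35, 0.00489) were lower, with a median difference of -0.07 over the list and -0.09 over all baits. None was called in the other 3 pairwise comparisons, by limma, and 7 of the 20 baits were called over the 7 conditions, where 9.69% of all baits were, namely Barx1, Msx2, Bmp4, Jag1, Bmp7, Alx4 and Hand2.

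The baits whose condition means were most like the mean of Dlx1 and Dlx2, over 7 conditions and 10197 baits, were Ahrr (Pearson r = 0.987), Shisa2 (0.969) and Fam43a (0.969). For Dlx3 and Dlx4 these were a bait on chromosome 12 with no annotated start site (0.988), that of Dph3 and Oxnad1 (0.97), and that of 4932438H23Rik (0.959). For Dlx5, over 10198 baits, they were B3gnt7 (0.973), Bach2 (0.942) and Gm25395 (0.941). With so many baits and 7 means, high values are found for any pattern, and the means share libraries.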

How the data were processed

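PCHi-C contacts were read from 14 lists, 2 replicates for each of 7 conditions, which the methods call biologically independent. Per the labels and methods, the authors demultiplexed reads with bcl2fastq 2.17, mapped them with HiCUP to mm10 and scored pairs with CHiCAGO. The deposited score of each pair is given only from 5 upward, per library, with no read count, so no counting interval was possible. File names mark Md replicate 1 and E12.5 pinna replicate 2 as merged. Start sites came from GENCODE vM21 (same build), and every listed fragment on chromosomes 2, 6 and 11 matched a HindIII digest.

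Unlisted pairs were set to 0. The contact rate, log2(listed pairs per 100000 + 1), was fitted with limma 3.58.1 (R 4.3.3, eBayes with trend) over 7 condition means for the baits with a mean of at least 5 listed pairs. Single pairs were fitted as asinh(score) over the compared libraries alone, for pairs listed in at least 2 of them, or 3 for the knockout. The p-values were adjusted by Benjamini-Hochberg over all features tested, with a threshold of 0.05. Where a pair was unlisted throughout a group, that group added no spread. Scripts were tested on simulated data. There the fit of single pairs against FNP also called many pairs made without a difference. Of the pairs shifted by 1.5, the other pair fits recovered 0% (knockout), 1.5% (pinna against PA2) and 13% (Md and PA2 against FNP and Mx). Calls of single pairs, and their absence, are therefore given as descriptions.

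Named pairs were the 5 highest-scoring of each linked pair over 30 kb away, those between linked baits, those past the threshold (the 10 largest), the farthest of at least 7 libraries and, per linked pair, the highest-scoring one of a single condition. Other genes were named when a Dlx bait reached their bait in at least 7 libraries, or as the 3 baits most alike by Pearson r. Contacts outside these rules (Itga6, the one nearest Cybrd1, the Sp9 intron, and the summaries over 1 Mb and of the Hox clusters) were picked with their values in view. So was the Slc25a12 fragment with the highest mean for Dlx2. The members and lists were chosen with earlier results of these data known. A planned comparison of super-enhancer contacts was not made, because the list of regions was held only in part. Alternatives were another score threshold, scaling, pseudocount, filter, fit and the omission of each library.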

Additional observations from a re-analysis of the deposited data

Results flagged for a closer look

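Beside the pairs within a chromosome, the Dlx baits listed 91 pairs with fragments on other chromosomes, a kind of pair that no comparison used. Only 2 of them were listed in 2 libraries or more. Most came from E12.5 pinna replicate 2 and Md replicate 1, the libraries rich in such pairs. Dlx5 listed 28 and 13 in these and 0 in each other library.

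The fragment with the Dlx6 start sites (chr6:6858379-6864655), which is not a bait, was listed 15 times as the far end of another gene's bait, never that of Dlx5. Sem1, a neighbouring gene, reached it in 7 libraries at up to 7.77. Fezf1 reached it in FNP replicate 2 and Mx replicate 1, at up to 28.14, and Dync1i1, Slc25a13 and 1700019G24Rik in 2 libraries each.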

How the results depend on the processing

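The counts of called Dlx baits kept within 1.5 times their main value under 109 of 114 alternatives. Many of these were 0 against 0, as no Dlx bait was called in the main fit or any alternative of 3 comparisons. These were the knockout comparison, Md and PA2 against FNP and Mx, and FNP against the other E10.5 wild-type conditions. They say nothing on how stable a call is. With a score of 10 or more, 0 baits were called for pinna against PA2 and 0 over the 7 conditions, as only Dlx5 was then tested. With pairs within 1 Mb only, chosen after seeing the data, 1 was called for pinna against PA2 (Dlx2 -1.06, limma adjusted p = 0.0719). Leaving out each library gave 0 to 2 for pinna against PA2 (0 without PA2 replicate 2, 1 without PA2 replicate 1) and 2 to 3 over the 7 conditions. The Dlx1 difference ranged from -1.63 to -1.48 and that of Dlx2 from -1.35 to -0.95. Single pairs were less stable, with 14 of 53 counts moved. Of pairs between Md and PA2 and FNP and Mx, 15 were called in the fit of 7 means. Of pairs against FNP, 0 were called with a score of 10 or more, 0 with 4 listed libraries and 6 in the fit of 7 means, and 7 to 16 without one library (7 without FNP replicate 1). Of knockout pairs, 53 of 203 were called when listed in 2 libraries, where 43498 of all 121401 were called, and 0 to 3 without one library (3 without PA2 replicate 1, 1 without PA2 replicate 2). Of pinna pairs, 11 were called with a score of 10 or more, 3 with 4 listed libraries, and 1 to 31 without one library (1 without PA2 replicate 1, 4 without PA2 replicate 2, 31 without E12.5 pinna replicate 1). For these the cause was not tested. With the 2 libraries rich in pairs between chromosomes left out, 2 Dlx baits remained called in pinna against PA2.

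Replicate numbers were not treated as pairing the samples in the main fits. The correlation of same-numbered deviations was above 0 in all 21 pairs of conditions (0.0034 to 0.27) and over 0.1 in 6. With a replicate block, 0, 0, 0, 2 and 2 Dlx baits and 0, 11, 9 and 20 Dlx pairs were called, so that among the Dlx counts only that of knockout pairs changed. Over all baits the block raised the calls from 95 to 140 in the knockout comparison and from 523 to 634 for pinna against PA2. Over the 7 conditions they rose from 988 to 1343.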
